A study of Rattus norvegicus with 5 samples.

Results

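Fkbp5, Zbtb16 and Crispld2 were followed as 3 genes known to be induced by glucocorticoids, in lung tissue of Sprague Dawley rats (an outbred strain) exposed to acute hypobaric hypoxia. They were found by gene symbol in the authors' deposited tables, which hold 1800 distinct symbols between them, and all 3 were present. RNA sequencing was done on 5 libraries, each the only one of its group. The reference was a male kept in normoxia and not screened for gasping. The other 4 rats had been classed by how long they went before a first gasp in hypobaric hypoxia and, after a week to acclimatize, spent 1 h in a decompression chamber at 9144 m. They were a susceptible male (first gasp before 5 min), a normal male, also called moderate (15 to 20 min), a tolerant male (above 45 min) and a tolerant female (above 1 h). The sources used here do not give ages, the time of day of sampling or hormone levels. The tolerant female was the only female, so its sex, its tolerance and the animal itself cannot be told apart in any of its comparisons. With 1 library per group, no difference has a replicate check, and every fold and FDR-corrected p-value compares a pair of libraries and not the conditions.

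Glucocorticoids, the steroid hormones of the stress response, bind the glucocorticoid receptor, which is held ready by the Hsp90 chaperone and its co-chaperones, enters the nucleus and raises or lowers the transcription of its targets. Fkbp5 encodes the immunophilin FKBP51, an Hsp90 co-chaperone that lowers the receptor's affinity for hormone, so its induction forms a feedback loop. Zbtb16 encodes PLZF, a zinc finger transcription factor of the BTB/POZ class that mostly represses its targets. Crispld2 encodes a secreted glycoprotein of the CAP superfamily, described in fetal rat lung as late gestation lung 1 (Lgl1), which mesenchymal cells make and which takes part in airway and alveolar development.

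The loci lie on 3 different chromosomes. The authors' deposited tables place Fkbp5 on chromosome 20 from 6637451 to 6686768, Zbtb16 on chromosome 8 from 51931395 to 52095032 and Crispld2 on chromosome 19 from 50313707 to 50378031, on a build that is not named. Their spans are 49318, 163638 and 64325 bp. The promoter windows of Fkbp5 and Crispld2, from 250 bases before to 50 bases after the RefSeq start site in the assembly GRCr8, are shown because these are the stretches in which receptor and hypoxia motifs could be searched. Capitals mark the motifs found, and both run 5′ to 3′ on the gene's strand, Fkbp5 at chr20:6543506-6543805 (minus strand) and Crispld2 at chr19:64978706-64979005 (plus strand).

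Fkbp5: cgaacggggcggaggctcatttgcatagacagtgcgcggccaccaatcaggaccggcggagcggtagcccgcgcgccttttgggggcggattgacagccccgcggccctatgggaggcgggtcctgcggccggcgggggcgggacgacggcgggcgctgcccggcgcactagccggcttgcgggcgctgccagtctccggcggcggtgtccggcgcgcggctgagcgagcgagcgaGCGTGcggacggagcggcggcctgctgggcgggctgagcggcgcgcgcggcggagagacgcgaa

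Crispld2: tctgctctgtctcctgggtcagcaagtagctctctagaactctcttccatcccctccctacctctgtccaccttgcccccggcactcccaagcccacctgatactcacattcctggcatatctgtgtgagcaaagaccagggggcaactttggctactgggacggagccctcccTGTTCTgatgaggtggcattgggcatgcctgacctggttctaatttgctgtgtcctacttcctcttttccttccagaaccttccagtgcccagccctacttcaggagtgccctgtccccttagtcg

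The 2 windows differ in base composition. The Fkbp5 window has a GC content of 77% and 52 CpG dinucleotides, and 97.9% of the 33469 RefSeq rat promoter windows have a lower GC content. The Crispld2 window has a GC content of 56% and 3 CpG dinucleotides, and 63.1% of windows have a lower GC content. Motifs were searched on both strands, and no motif found overlaps another. The half-site of the glucocorticoid receptor, AGAACA, occurs once in the Crispld2 window, as TGTTCT starting 76 bases before the start site, and not in the Fkbp5 window, and 20.7% of all windows hold it. The palindrome GNACA, any 3 bases, then TGTNC is in neither window and in 0.439% of all windows. Of the core letters of the hypoxia response element, GCGTG occurs once in the Fkbp5 window, starting 14 bases before the start site, and is in 29.7% of windows, whereas ACGTG is in neither and in 19.3%. A match describes letters and not a bound site, and the lack of one concerns these windows alone.

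The folds are the authors' own, given as a signed ratio of proportions, and a row enters a table only where its fold reaches 2 in either direction and its FDR-corrected p lies below 0.05. Counts and levels of single libraries are not in the tables, and depth is unknown. Folds between libraries that no table lists were derived by chaining deposited folds through a shared library. Derived folds carry no p-value. In lung tissue as a whole, fewer cells of a type and less RNA per cell cannot be told apart, here and throughout. Marker lists of other cells moved in the same tables. In the 4 tables against normoxia, cardiac muscle markers were lower for 9 to 10 of 11 (Actc1, Actn2, Mb, Myh6, Myh7, Myl7, Ryr2, Sln, Tnni3 and Tnnt2), B cell markers lower for 1 to 7 of 7 (Cr2, Cxcr5 and Cd22 among them) and neutrophil markers listed for 1 to 6 of 8 in the authors' deposited tables. Of the neutrophil markers, 5 were higher in the susceptible male, with Lcn2 and Ngp among them, 2 in the normal male, 1 in the tolerant male and none in the tolerant female, while Retnlg was lower in all 4. None of 8 alveolar type II and none of 7 endothelial markers was listed there. Of 9 fibroblast and smooth muscle markers 4 were listed for the normal male, of which 3 (Col3a1, Col1a2 and Col1a1) were lower and 1 (Cnn1) was higher, and 1, Dcn, for the tolerant female, higher. Their part in the results below was not tested, and whether lung markers are present cannot be read from folds alone. No row lies on chromosome Y, so the sex labels could not be checked on it.

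Each of the 3 genes had its own order of the libraries. Fkbp5 was highest in the normal male, Zbtb16 in the tolerant female and Crispld2 in the susceptible male, although the span from lowest to highest library was alike, at 4.36-, 4.39- and 4.20-fold. Of the 14 rows that hold a member, 13 were on the higher side in the authors' deposited tables, and the other was Fkbp5 in the tolerant male over the normal male.

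**Figure D1:**
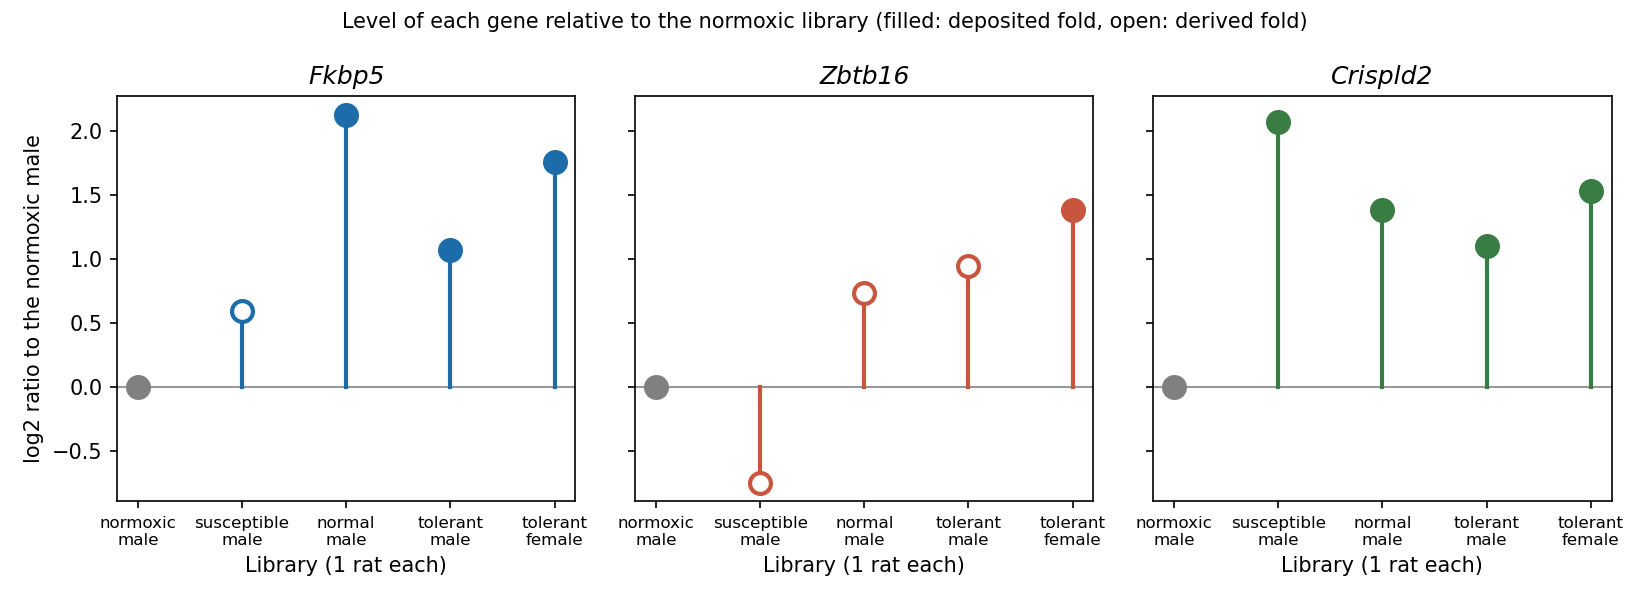
Level of Fkbp5, Zbtb16 and Crispld2 in each library (x axis, 1 rat each) as the log2 ratio to the normoxic male (y axis). Filled points are deposited folds, open points are derived folds and the grey point is the reference; the susceptible male is lowest for Zbtb16 at -0.75 and highest for Crispld2 at 2.07.

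Fkbp5 was higher than in normoxia in 3 of the authors' deposited tables, those of the normal male, the tolerant male and the tolerant female. It was 4.36-fold higher in the normal male and 3.37-fold higher in the tolerant female, each with an FDR-corrected p listed at 0 in the authors' deposited tables. The tolerant male, at 2.09-fold higher with an FDR-corrected p of 2.31e-07 in the authors' deposited table, lay just above the 2-fold minimum. The susceptible male is outside its table for this gene, and its derived level was 1.5-fold that of normoxia, the lowest of the exposed libraries. An exact 0 stands in 7 of the 14 rows of members, and the smallest FDR-corrected p above 0 in any of the authors' deposited tables is 2.15e-14.

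Between exposed libraries, Fkbp5 separated the susceptible male from the normal male and the tolerant female. It was 2.90-fold higher in the normal male and 2.24-fold higher in the tolerant female than in the susceptible male, each with an FDR-corrected p listed at 0 in the authors' deposited tables. The tolerant male was 2.08-fold lower than the normal male, also with a p listed at 0 in the authors' deposited table. The neighbours in the order of the levels were not listed against each other. By derived folds the tolerant male was 1.39-fold above the susceptible male, the tolerant female 1.61-fold above the tolerant male and the normal male 1.29-fold above the tolerant female. Among the symbols higher in the normal male over normoxia, Fkbp5 ranked 161 of 419 by fold, and the median fold there was 3.45 in the authors' deposited table. The same table's higher symbols had a median locus span of 4884 bp and its lower symbols one of 23898 bp, against 49318 bp for Fkbp5. How far this difference in span bears on the value was not tested.

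Zbtb16 was set apart by a low level in the susceptible male. Of the tables against normoxia it is listed only in that of the tolerant female, at 2.60-fold higher with an FDR-corrected p of 2.85e-13 in the authors' deposited table. Against the susceptible male it was higher in each of the other exposed libraries. It was 2.80-fold higher in the normal male with an FDR-corrected p of 7.88e-10, and 3.23-fold higher in the tolerant male with one of 6.71e-13, in the authors' deposited tables. In the tolerant female it was 4.39-fold higher than in the susceptible male with an FDR-corrected p listed at 0, the largest fold of any of the 3 genes in the authors' deposited tables.

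The derived levels of Zbtb16 put the susceptible male below normoxia and the other exposed rats above it. Its level in the susceptible male was 0.594 times that of the normoxic male, a derived log2 difference of -0.75. The derived ratios to normoxia were 1.66 in the normal male and 1.92 in the tolerant male. The 4 exposed libraries thus stood in the order susceptible, normal and tolerant male, then tolerant female. The tolerant labels, above 45 min and above 1 h, are both open-ended, so they do not rank the tolerant male and the tolerant female. Only the step from susceptible to normal male is listed. By derived folds the tolerant male was 1.15-fold above the normal male and the tolerant female 1.36-fold above the tolerant male. Each of these levels rests on 1 chain, so Zbtb16 offers no second path to compare.

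Crispld2 was higher than in normoxia in all 4 exposed libraries, and highest in the susceptible male. It was 4.20-fold higher in the susceptible male with an FDR-corrected p listed at 0, where it ranked 34 of the 103 higher symbols in the authors' deposited table. It was 2.89-fold higher in the tolerant female with an FDR-corrected p of 7.18e-09, and 2.60-fold higher in the normal male with one of 2.93e-07, in the authors' deposited tables. The tolerant male was lowest of the exposed rats, at 2.15-fold higher with an FDR-corrected p of 0.000728 in the authors' deposited table. In none of the tables between exposed libraries is Crispld2 listed. The derived folds there ran from 1.11-fold, for the tolerant female over the normal male, to 1.96-fold, by which the tolerant male was below the susceptible male.

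Every comparison in which a member is not listed had a derived fold under 2. The 3 genes and 9 tables give 27 combinations, of which 14 are listed and 13 are not, and all 13 derived folds were below the 2-fold minimum. For Fkbp5 the 3 unlisted folds were 1.29 to 1.5, for Zbtb16 the 5 were 1.15 to 1.92, and for Crispld2 the 5 were 1.11 to 1.96. The tolerant female and the tolerant male share no table. The derived folds of that pair were 1.61 for Fkbp5, 1.36 for Zbtb16 and 1.34 for Crispld2, all higher in the tolerant female. Without the normal male, whose tables are the longest, each gene is in 3 of the 5 remaining tables.

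**Figure D2:**
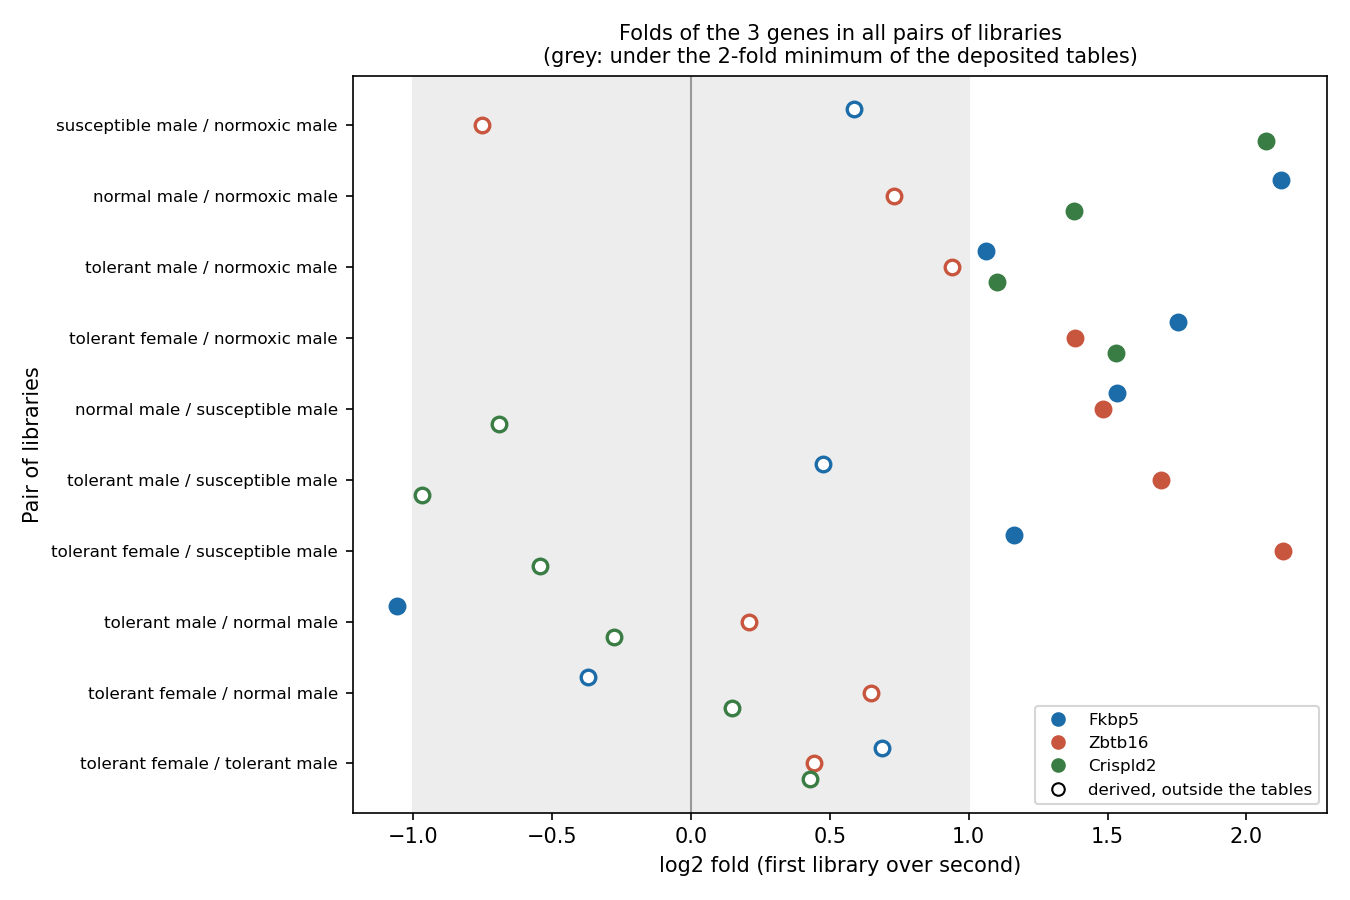
Log2 fold of each gene (x axis) in each of the 10 pairs of libraries (y axis, first library over second). Filled points are deposited folds and open points derived ones; the grey band is the range under the 2-fold minimum, which holds every open point, the nearest to its edge being Crispld2 at -0.97 in the tolerant male over the susceptible male.

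The number of members listed differed between the tables. To read these counts, the share of the 1800 symbols on the same side of the same table is given beside each. Every member is by rule among those symbols, and the members were chosen with results known, so nothing is read from the counts. Against normoxia, 1 of 3 was higher in the susceptible male (5.72% of all symbols), 2 in the normal male (23.3%), 2 in the tolerant male (6.83%) and all 3 in the tolerant female (7.44%), by the authors' deposited tables. Against the susceptible male, 2 were higher in the normal male (35.1%), 1 in the tolerant male (4.06%) and 2 in the tolerant female (6.28%), by the authors' deposited tables. Against the normal male, 1 was lower in the tolerant male (26.4%) and none was listed for the tolerant female (11.6% higher and 21.2% lower), by the authors' deposited tables.

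The order of the libraries can be set beside other loci. Levels in all 5 libraries could be derived for 430 loci, which are those with large enough folds to be listed several times. The order of the 4 exposed libraries seen in Fkbp5 was that of 119 of these loci (27.7%), and its order over all 5 libraries that of 8 (1.86%). That of Zbtb16 was seen in 2 (0.465%), and over all 5 libraries in Zbtb16 alone (0.233%). That of Crispld2 was seen in 4 (0.93%), and over all 5 libraries in 3 (0.698%). A level below normoxia in the susceptible male and above it in the other 3 exposed libraries, as in Zbtb16, was seen in 19 loci (4.42%), and a level above normoxia in all 4 exposed libraries, as in Fkbp5 and Crispld2, in 70 (16.3%). Each count includes the gene itself, and these are descriptions of loci that share the same libraries.

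The wider list of 45 glucocorticoid-induced genes was on the higher side wherever it was listed against normoxia. In the susceptible male 15 were higher and none lower, where 5.72% and 8.56% of all symbols were higher and lower. The list's median log2 fold there was 1.71, beside 1.66 over all higher symbols in the authors' deposited table. For the normal male, the tolerant male and the tolerant female, 9 each were higher and none lower in the authors' deposited tables. The list's median log2 folds were 2.12, 1.69 and 2.25, beside 1.79, 1.39 and 1.52 over all higher symbols of the respective tables. The shares of all symbols on the higher side were 23.3% in the normal male, 6.83% in the tolerant male and 7.44% in the tolerant female. So the equal counts of 9 of 45 stand beside unequal shares. The shares on the lower side were 25% in the normal male, 7.72% in the tolerant male and 6.39% in the tolerant female. Of all symbols in each table, 40.1%, 48.2%, 46.9% and 53.8% were on the higher side, in the order susceptible, normal, tolerant male and tolerant female, by the authors' deposited tables. The 4 tables share the normoxic library. The list includes the members and was written with earlier results of these data known, so its counts and medians are descriptions only, here and below.

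Several genes of the list had larger folds than the 3 members. Cdkn1a, a cell cycle inhibitor, was 17.0-fold higher in the susceptible male with an FDR-corrected p listed at 0 in the authors' deposited table. Errfi1, an inhibitor of the EGF receptor, was 7.33-fold higher in the susceptible male with an FDR-corrected p of 1.95e-08 in the authors' deposited table. Pck1, an enzyme of gluconeogenesis, was 24.5-fold higher in the same table with an FDR-corrected p of 0.0135. Lcn2 is a neutrophil and epithelial lipocalin that is also on the neutrophil list. It was 34.8-fold higher in the susceptible male and 35.4-fold in the tolerant male in the authors' deposited tables. Its FDR-corrected p-values there were 3.73e-11 and 2.36e-11. The metallothionein Mt2A was 46.7-fold higher in 1 of its 2 rows for the normal male in the authors' deposited table. The FDR-corrected p of that row was 0.00758, and its value is uncertain because metallothionein copies are near-identical. These p-values of Pck1 and Mt2A were above the largest of any member, 0.000728 for Crispld2 in the tolerant male over normoxia. Map3k6, a stress-activated kinase, was 2.94-, 4.77-, 2.48- and 3.96-fold higher in the susceptible, normal and tolerant male and the tolerant female, by the authors' deposited tables. Its FDR-corrected p-values, in the same order, were 6.61e-05, 5.41e-14, 0.00365 and 1.63e-09.

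Against the susceptible male, Fkbp5 and Zbtb16 stood on the opposite side from most listed genes of the list. In the tolerant male 6 of its genes were lower than in the susceptible male and 1, Zbtb16, was higher, where 3.39% and 4.06% of all symbols were lower and higher in the authors' deposited table. In the tolerant female 5 were lower and 2, Fkbp5 and Zbtb16, were higher (3.28% and 6.28% of all symbols) in the authors' deposited table. For the normal male, 7 were lower and 4, namely Fkbp5, Zbtb16, Mt1a and Bcl6, were higher (22.4% and 35.1% of all symbols) in the authors' deposited table. Over these tables, the median log2 fold of the list was -1.19 in the normal male, -1.19 in the tolerant male and -1.04 in the tolerant female. Over all symbols of the respective tables it was 1.22, 1.05 and 2.25, in the authors' deposited tables. The median locus spans of higher and lower symbols there were 5643 and 26761.5 bp in the normal male. They were 17171 and 9632 bp in the tolerant male and 569 and 15538 bp in the tolerant female. How far span bears on these medians was not tested. Markers of other cells moved in the same tables. Against the susceptible male, neutrophil markers were lower for 2 of 8 in the normal male, 1 in the tolerant male and 5, with Lcn2 of both lists among them, in the tolerant female (median log2 fold of -4.20), in the authors' deposited tables. B cell markers were higher for 5 of 7 in the normal male and 3 in the tolerant male, and none was listed for the tolerant female, by the authors' deposited tables. Their part in the list's counts was not tested. Against the normal male, 2 genes of the glucocorticoid list were higher and 3 lower in the tolerant male, where 15.3% and 26.4% of all symbols were higher and lower, and 2 were higher and 2 lower in the tolerant female, by the authors' deposited tables.

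**Figure D3:**
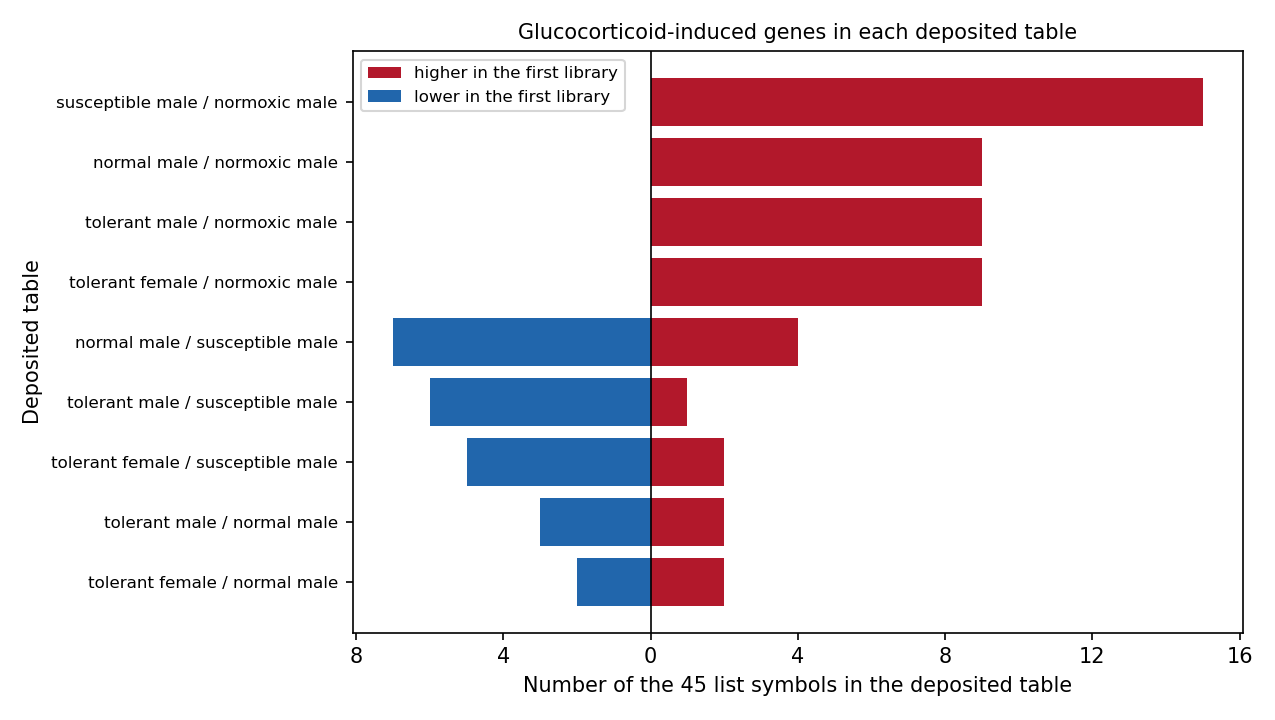
Number of the 45 glucocorticoid-induced symbols (x axis) that each deposited table (y axis) holds on the higher side (right, red) and on the lower side (left, blue). All listed symbols are on the higher side against normoxia, 15 of them in the susceptible male, and 5 to 7 are on the lower side against the susceptible male.

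Levels in all 5 libraries could also be derived for other genes of the list. In 5 of them, Cdkn1a, Dusp1, Errfi1, Irs2 and Rgs2, the susceptible male was the highest exposed library, as it was for Crispld2. Rgs2, a regulator of G protein signalling, was 2.39-fold higher than in normoxia in the susceptible male in the authors' deposited table, and its derived ratios in the other 3 exposed libraries were 1.02 to 1.07. Dusp1, a phosphatase that switches off MAP kinases, was 3.16-fold higher in the susceptible male in the authors' deposited table and had a derived ratio of 0.523 in the normal male. In Map3k6 and Mt1a the normal male was highest, as it was for Fkbp5. The normal male was highest for Lcn2 too, but at a derived ratio of 65.2 that its table against normoxia does not list, so a gene's absence from a table does not by itself show a fold under 2. Dusp1, Irs2, Rgs2, Mt1a and Bcl6 are named here after their values were seen.

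**Figure D4:**
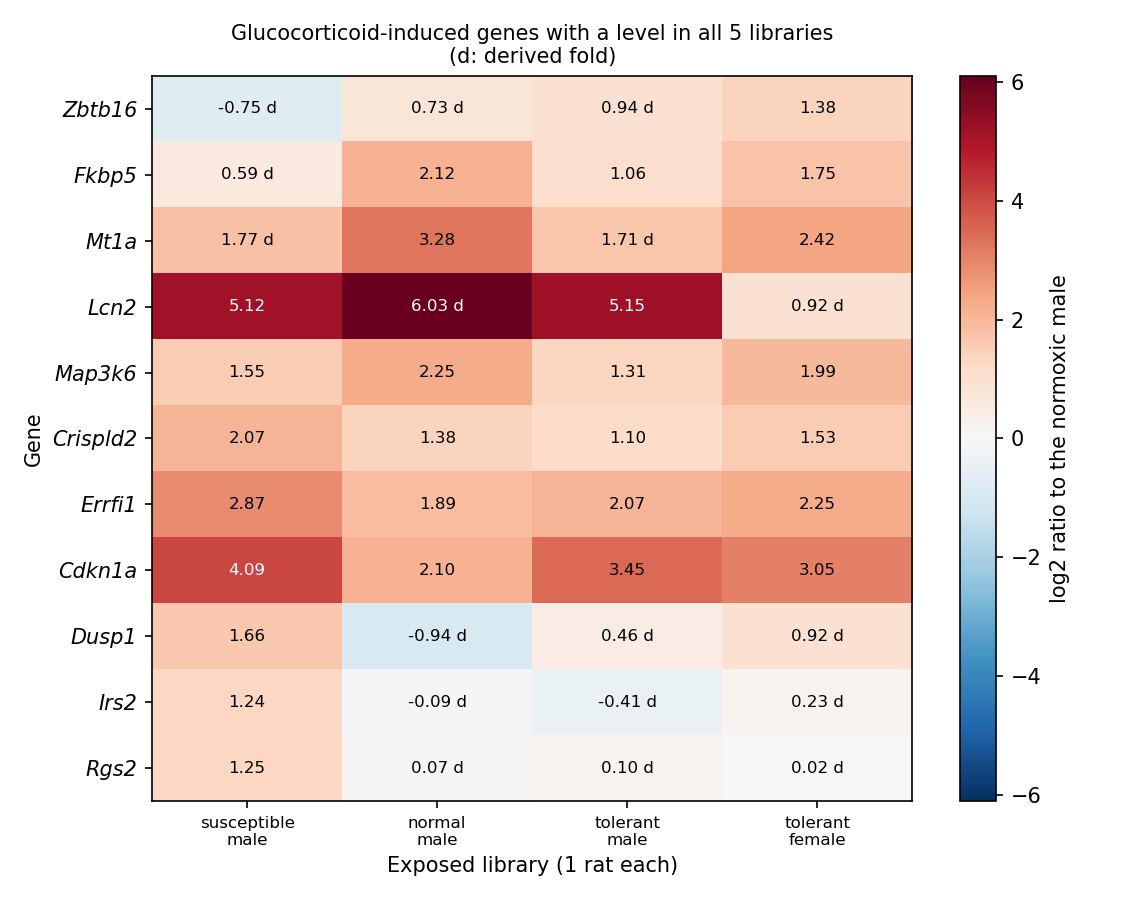
Log2 ratio to the normoxic male (colour and printed value) of 11 list genes with a level in all 5 libraries (rows), in each exposed library (columns); d marks a derived fold. Rows run from genes lowest in the susceptible male relative to the other exposed rats (Zbtb16 at the top) to Rgs2, at 1.25 in the susceptible male and 0.02 to 0.10 in the others.

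The receptor's own machinery was examined next. Of 22 genes for the glucocorticoid and mineralocorticoid receptors, steroid enzymes, chaperones and cofactors, 3 are in any table, and the receptor genes Nr3c1 and Nr3c2, the cortisone reductase gene Hsd11b1 and the FKBP52 gene Fkbp4 are in none, which does not show that they were unchanged. The heat shock genes Hspa1a and Hspa1b, a near-identical pair whose reads may be shared, were 3.27- and 3.46-fold higher in the normal male. Their FDR-corrected p-values there were 1.81e-10 and 0.0315 in the authors' deposited table. Hspa1a was also 2.46-fold higher in the tolerant female with an FDR-corrected p of 7.09e-05 in the authors' deposited table.

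Of 21 inflammatory genes known to be repressed by glucocorticoids, 3 are in any table, all of them higher against normoxia where listed. Il1a, which encodes interleukin 1 alpha, was 7.36-fold higher in the susceptible male and 3.73-fold in the tolerant female, the chemokine gene Cxcl1 5.16-fold in the normal male and the gelatinase gene Mmp9 3.57-fold in the susceptible male in the authors' deposited tables. Il1a was 5.52-fold lower in the normal male and 3.69-fold lower in the tolerant male than in the susceptible male, and 2.79-fold higher in the tolerant female than in the normal male, in the authors' deposited tables.

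The members' relatives by protein family were also followed. Fkbp5 was the only one of 15 FKBP genes in any table. Of 42 BTB zinc finger genes 6 are listed, and Zbtb16 was the only one listed against normoxia. Bcl6, another repressor of that class, was 2.18-fold higher in the normal male than in the susceptible male in 1 of its 2 rows in the authors' deposited table, the row with the largest fold. Of 12 CAP superfamily genes 3 are listed. Besides Crispld2 these were Glipr1 and Glipr2, at 2.99- and 6.48-fold higher in the normal male than in normoxia in the authors' deposited table. Each has 2 rows there, and the row with the largest fold is given. This Glipr1 row is placed on chromosome 1, whereas the RefSeq table has the gene on chromosome 7.

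Likeness to a member was measured as the root mean square difference of log2 folds over the tables against normoxia that list the member. Of 81 symbols in the 3 tables of Fkbp5, the nearest were Map3k6 at 0.21, Nid67 at 0.29 and Nov at 0.33. Map3k6 was 4.77-, 2.48- and 3.96-fold higher in the normal male, tolerant male and tolerant female, by the authors' deposited tables, where Fkbp5 was 4.36-, 2.09- and 3.37-fold higher. Of 57 symbols in the 4 tables of Crispld2, the nearest were Tiparp at 0.19, RGD1359349 at 0.29 and Heyl at 0.35. Tiparp, a gene of the poly(ADP-ribose) polymerase family, was 3.42-, 2.38-, 2.32- and 2.62-fold higher in the susceptible, normal and tolerant male and the tolerant female, by the authors' deposited tables. Zbtb16 is in 1 such table, which is too few for the measure. Over deposited and derived folds of all 4 exposed libraries, among 429 other loci, the nearest were Apln at 0.31 for Fkbp5, Coq10b at 0.12 for Crispld2 and Pdlim5 at 0.54 for Zbtb16. Pdlim5 had a ratio of 1.02 to normoxia in the susceptible male, so it lacked the low value that Zbtb16 had there.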

How the data were processed

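Lung RNA was sequenced on a Genome Analyzer IIx, per the labels' protocols. The authors' deposited tables give, for a pair of libraries, a signed fold, used here as a score (a ratio of proportions, negative where the first library is lower, as the file headers and values show), and an FDR-corrected p-value. The authors kept rows with a fold of at least 2 and a p-value below 0.05. The sources used here do not name the aligner, genome build, counting or test. The 11 tables include 2 byte-identical copies, leaving 9. Symbols were matched with the bracketed record removed and case ignored, and the row with the largest fold was kept per symbol in a table. Unlisted folds were derived as differences of log2 folds through a shared library. Of 172 loops of 3 tables, 171 closed within 0.001 log2. The other, of a gene not used here, was off by 2.3 log2. Different paths for Fkbp5 agreed within 2.48e-13 log2, and the other members had 1 path per pair, so their derived folds could not be checked in this way. No test was run here: with 1 library per group and no counts none was possible. Shares of symbols use the 1800 symbols in any table, since the number the authors tested is not given. Names, chromosomes and promoter windows come from RefSeq (GRCr8), which matched 2 of 3 members for promoters; Zbtb16 was not matched. Genes were named if in at least 3 tables against normoxia or among the 3 largest finite folds there of their list, and so were the 3 most like each member; exceptions are stated, and some genes that this rule names are not reported here. Members and lists were chosen with earlier results of these data known. Alternatives were a p of at most 0.01, a fold of at least 4, the smallest-fold row, other paths and the list without the members. Python 3.11.15, pandas 2.3.3 and numpy 2.4.6 were used. Only the chaining of folds was tested on simulated data, which had no counting noise, so this checked its arithmetic alone.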

Additional observations from a re-analysis of the deposited data

Results flagged for a closer look

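Zbtb16 differed in direction between the exposed rats. Its derived log2 ratio to the normoxic male was -0.75 in the susceptible male, whereas it was 0.73 in the normal male, 0.94 in the tolerant male (both derived) and 1.38 for the tolerant female in the authors' deposited table. With 1 library per group this difference in direction was not tested, and the value for the susceptible male is itself under the 2-fold minimum of the tables.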

How the results depend on the processing

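The 14 listings of members all passed an FDR-corrected p threshold of 0.01, and 70 of the 76 listings of the glucocorticoid list were. Taking the smallest-fold row of a symbol left 76, and leaving the members out left 62. At a fold of at least 4, members fell to 3 listings: from 2 to 1 in the normal male and from 2 and 3 to 0 in the tolerant male and tolerant female over normoxia, from 2, 1 and 2 to 0, 0 and 1 in the normal male, tolerant male and tolerant female over the susceptible male, and from 1 to 0 in the tolerant male over the normal male. The list fell to 29. Over normoxia it fell from 15 to 7 in the susceptible male and from 9 to 6 in the normal male. It fell there from 9 to 4 in the tolerant male and from 9 to 5 in the tolerant female. Over the susceptible male it fell from 11, 7 and 7 to 2, 0 and 2 in the normal male, tolerant male and tolerant female. Over the normal male it fell from 5 and 4 to 1 and 2 in the tolerant male and tolerant female. The fold of 1.5 and the removal of the normal male were chosen after seeing the data. With derived folds of at least 1.5 counted, members rose to 21: from 1 to 3 in the susceptible male over normoxia (Fkbp5 higher, Zbtb16 lower), from 2 to 3 in the normal male and the tolerant male over normoxia and in the normal male over the susceptible male, from 1 to 2 in the tolerant male over the susceptible male and from 0 to 1 in the tolerant female over the normal male. Without the normal male, Fkbp5 is in 3 tables in place of 6. These changes follow from the threshold or the tables removed. No paired analysis was possible because each group has 1 library and the labels give no replicate numbers. Depth is unknown, so the precision of a fold cannot be given.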
